A study of Mus musculus with 16 samples.

Results

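The mouse microRNAs miR-148a-3p, miR-148b-3p and miR-152-3p form a family that shares its seed, the stretch of bases 2 to 8 that pairs with messenger RNA targets. Reads of 20 to 26 nt were assigned to a member when they began with the first 20 bases of its mature sequence. The 3 members were read off a table of 1621 mature microRNA arms (arms with the same first 20 bases merged), of which 545 had at least 1 read in the sperm libraries. The family was chosen by its read counts in these libraries, its levels and shares among them, so these are given first as description.

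MicroRNAs are cut from hairpin precursors and guide Argonaute proteins to messenger RNAs that match the seed. The maintenance DNA methyltransferase Dnmt1 is among the reported targets of this family in human and mouse cells. The 3′ end of a mature microRNA can be trimmed, or extended by terminal nucleotidyltransferases, which add uridine or adenosine that the genome does not encode.

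Small RNA of mature sperm was sequenced in 8 libraries, 2 from each of 4 groups. Sperm came from the cauda epididymis of adult males on the C57BL/6NCrl background that carried the Dnmt2tm1Bes null allele in both copies (Dnmt2-/-) or kept Dnmt2 (Dnmt2+/+), a methyltransferase of tRNA cytosines also named Trdmt1. Within each genotype, males received a high-fat diet (HFD, D12492) or a normal diet (ND, Diet 1415), so the groups were Dnmt2-/- HFD, Dnmt2+/+ HFD, Dnmt2-/- ND and Dnmt2+/+ ND. The null allele was carried in every cell of the animal and had been backcrossed for more than 5 generations. The C57BL/6NCrl males were 6 weeks old when bought. The age at collection, the length of feeding and the number of males behind a library are not given in the sources used here, so the tests speak only of how far these libraries differ, and part of that may be technical. Small RNA libraries hold no measure of Dnmt2 messenger RNA, and the genotypes were taken from the labels.

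Libraries held 10165031 to 13305449 reads on HFD and 13150403 to 19030258 reads on ND. MicroRNAs made up 2.61% to 7.01% of reads on HFD and 1.08% to 2.76% on ND. Rates of base changes at fixed read positions placed the libraries in 3 sets that followed diet in part. Set A held Dnmt2-/- ND replicates 1 and 2 and Dnmt2+/+ ND replicate 1. Set B held Dnmt2-/- HFD replicate 1 and Dnmt2+/+ HFD replicates 1 and 2. Set C held the remaining libraries, with neither kind of change above its cut-off: Dnmt2-/- HFD replicate 2 and Dnmt2+/+ ND replicate 2. Diet and set therefore cannot be told apart outside set C, which has 1 library of each diet, and these also differ in genotype.

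The mature sequences below are shown because the members can be separated only by a few bases. They come from RefSeq (GRCm38.p6), written 5′ to 3′ with the seed in capitals.
miR-148a-3p: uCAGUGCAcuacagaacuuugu
miR-148b-3p: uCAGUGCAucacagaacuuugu
miR-152-3p: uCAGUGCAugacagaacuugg
The seed CAGUGCA occurred in no other RefSeq mature arm of mouse. Counted from 1 at the 5′ end, miR-148a-3p differs from miR-148b-3p by C9U and U10C, and from miR-152-3p by C9U, U10G and U20G. The miR-148b-3p and miR-152-3p sequences differ by C10G and U20G. All of these differences lie within the 20 bases used to assign reads. A read of miR-148a-3p becomes one of miR-148b-3p only with both changes together, and the product of the 2 separate change rates gave less than 1 such read in each library.

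The hairpins are shown because they set which 3′ bases the genome encodes, with the 3p arm in capitals.
Mir148a: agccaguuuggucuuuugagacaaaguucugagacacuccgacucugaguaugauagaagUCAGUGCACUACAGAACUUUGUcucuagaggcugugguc
Mir148b: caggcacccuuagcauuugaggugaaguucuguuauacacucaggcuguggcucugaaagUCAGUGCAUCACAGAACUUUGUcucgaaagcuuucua
Mir152: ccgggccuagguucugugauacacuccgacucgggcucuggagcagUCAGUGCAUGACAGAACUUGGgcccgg
The next 3 encoded bases are CUC after miR-148a-3p and miR-148b-3p, and GCC after miR-152-3p. Mature miR-148a-3p lies at chr6:51269829-51269850 on the minus strand, within the bounds of the predicted gene Gm38821. Mature miR-148b-3p lies at chr15:103285185-103285206 on the plus strand, within Copz1. Mature miR-152-3p lies at chr11:96850439-96850459 on the plus strand, within Copz2. Copz1 and Copz2 encode zeta subunits of the COPI vesicle coat.

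Almost all family reads were miR-148a-3p. Over the 8 libraries it had 651447 reads, against 1858 reads of miR-148b-3p and 2865 reads of miR-152-3p. Its share of family reads was 98.5% and 99.3% in Dnmt2-/- HFD and 98.7% and 97.7% in Dnmt2+/+ HFD, against 99.6% and 99.7% in Dnmt2-/- ND and 99.8% and 98.0% in Dnmt2+/+ ND. Its reads outnumbered those of the other members together by 42.4 to 137 times on HFD and by 48.4 to 549 times on ND.

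Levels are given in CPM, reads per 1000000 reads of the library. The level of miR-148a-3p was 4033 and 4449 CPM in Dnmt2-/- HFD and 5641 and 3318 CPM in Dnmt2+/+ HFD, against 3613 and 5710 CPM in Dnmt2-/- ND and 14801 and 3993 CPM in Dnmt2+/+ ND. The groups overlapped for both diet and genotype, and Dnmt2+/+ ND replicate 1 stood above the other 7 libraries. With it, the ND mean was 7029 ± 5261 CPM (SD, n = 4), beside 4360 ± 973 CPM on HFD (SD, n = 4). Without it, the ND mean was 4439 ± 1118 CPM (SD, n = 3).

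The level of miR-148b-3p was 20.9 and 14.5 CPM in Dnmt2-/- HFD and 27.6 and 23.7 CPM in Dnmt2+/+ HFD, against 7.28 and 7.83 CPM in Dnmt2-/- ND and 14.3 and 33.3 CPM in Dnmt2+/+ ND. The lowest of these rests on 96 reads, with an exact binomial 95% interval of 5.90 to 8.89 CPM. Both Dnmt2-/- ND libraries lay below the other 6, and Dnmt2+/+ ND replicate 2 was the highest.

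The level of miR-152-3p was 42.2 and 18.04 CPM in Dnmt2-/- HFD and 49.5 and 54.5 CPM in Dnmt2+/+ HFD, against 8.35 and 7.76 CPM in Dnmt2-/- ND and 12.7 and 49.3 CPM in Dnmt2+/+ ND. The 3 libraries of set A were the lowest, at 7.76 to 12.7 CPM, and those of set B lay between 42.2 and 54.5 CPM. Reads of miR-152-3p outnumbered those of miR-148b-3p by 1.24 to 2.30 times on HFD and by 0.886 to 1.48 times on ND, so their order turned in 2 ND libraries, where the ratio was below 1.

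**Figure D1:**
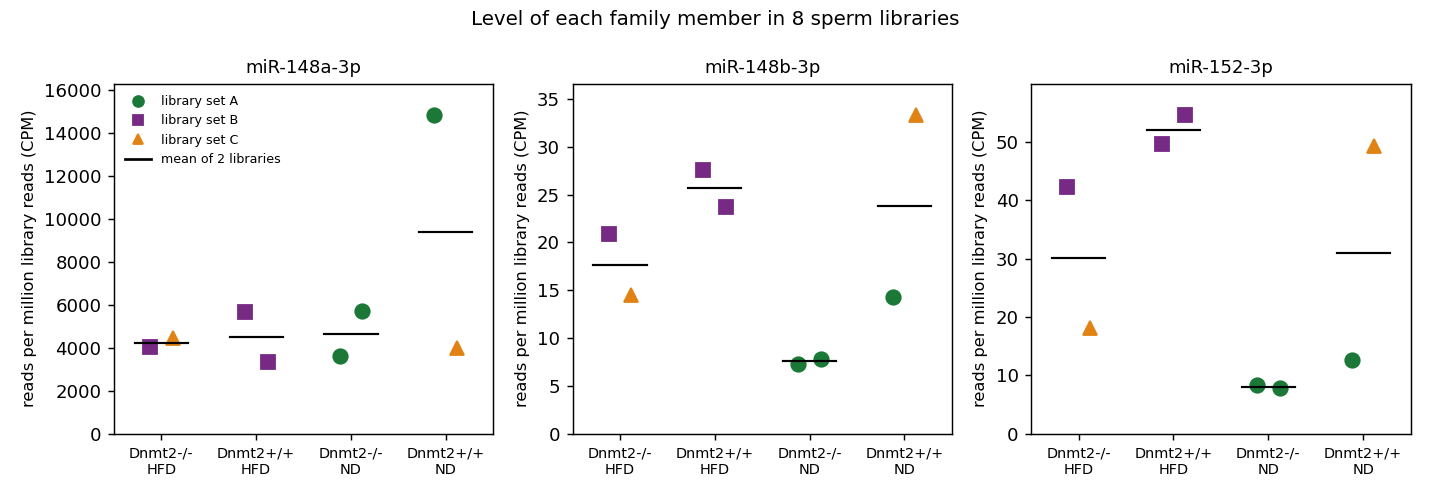
Level of each family member in CPM (vertical axis, from 0) in the 4 groups of 2 sperm libraries; each point is a library, its shape and colour give the library set, and the bar is the mean of the 2. The point at 14801 CPM for miR-148a-3p is Dnmt2+/+ ND replicate 1, and for miR-152-3p the set A points lie at 7.76 to 12.7 CPM.

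Among all microRNAs, miR-148a-3p was the most abundant in each of the 4 ND libraries and ranked 2 to 5 on HFD. Its share of microRNA reads was 6.82% and 17.1% in Dnmt2-/- HFD and 8.04% and 6.23% in Dnmt2+/+ HFD, against 33.5% and 42.9% in Dnmt2-/- ND and 53.7% and 18.99% in Dnmt2+/+ ND. The diets did not overlap in this share, which was lower on HFD. Groups that did not overlap and were lower on HFD were found for 8 of 187 microRNAs (4.28%), and in either direction for 18 (9.63%). In set C the 2 shares were 17.1% on HFD and 18.99% on ND, next to each other in the order of the 8 libraries.

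The same shares followed the library sets. They were 33.5% to 53.7% in set A, 6.23% to 8.04% in set B and 17.1% to 18.99% in set C. The most abundant microRNA on HFD was let-7f-5p, a member of the let-7 family. Reads of miR-148a-3p were 0.234 to 0.966 times those of the most abundant other microRNA on HFD and 1.91 to 6.80 times on ND. For miR-148b-3p, the share of microRNA reads was 0.0353% to 0.0556% on HFD and 0.0518% to 0.158% on ND, and the groups overlapped. For miR-152-3p it was 0.0692% to 0.102% on HFD and 0.0459% to 0.235% on ND, which also overlapped.

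**Figure D2:**
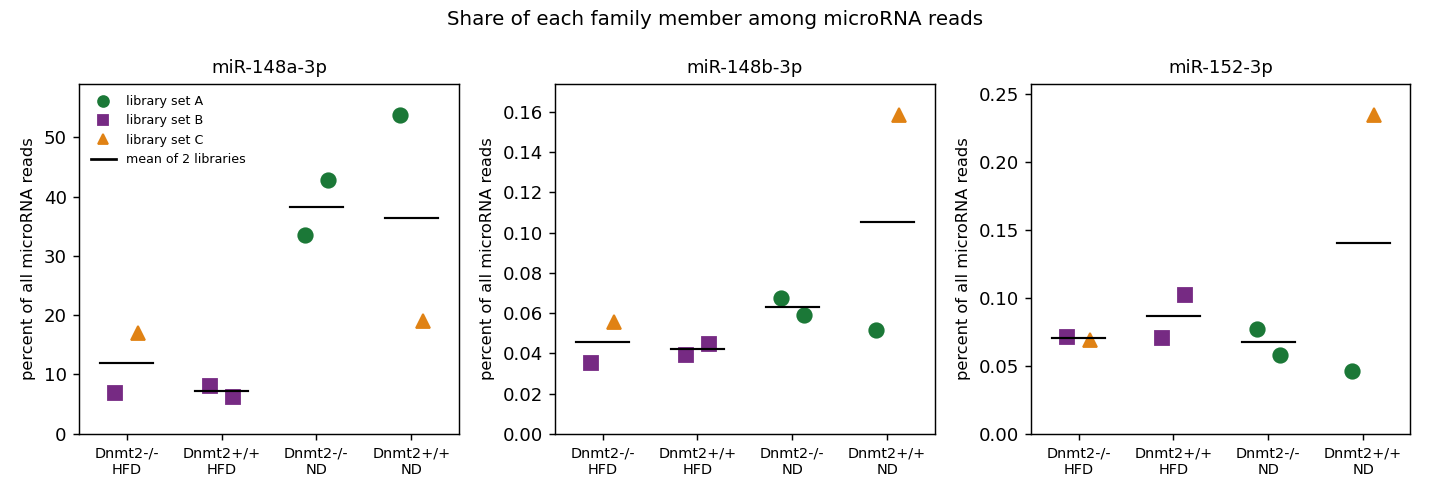
Share of each family member among all microRNA reads (vertical axis, percent, from 0) in the 4 groups of 2 sperm libraries, with library sets marked by shape and colour and the mean of 2 libraries as a bar. The HFD points of miR-148a-3p lie at 6.23% to 17.1% and its ND points at 18.99% to 53.7%, with the set C libraries of both diets adjacent at 17.1% and 18.99%.

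Whether diet changed the members was tested with edgeR's quasi-likelihood test over the 187 microRNAs that passed a filter on low counts, among them all 3 members, with all reads of a library as its size. None of the 3 members passed an adjusted p of 0.05, at which 14 of 187 microRNAs (7.49%) were called, all 14 higher on HFD. The fold change of miR-148a-3p, HFD over ND averaged over genotype, was −0.60 ± 0.44 on the log2 scale (SE, unadjusted 95% interval −1.60 to 0.39, edgeR adjusted p = 0.33). That of miR-148b-3p was 0.67 ± 0.50 (SE, 95% interval −0.47 to 1.81, edgeR adjusted p = 0.331). That of miR-152-3p was 1.32 ± 0.58 (SE, 95% interval 0.01 to 2.64, edgeR adjusted p = 0.163). The adjusted p-values miss the threshold, and the intervals leave room for changes of more than 1 log2 unit in each member. These calls depend on Dnmt2+/+ ND replicate 2. Without it, edgeR called 147 of 207 microRNAs (71%), among them miR-148a-3p at −0.93 (adjusted p = 0.041), miR-148b-3p at 1.03 (adjusted p = 0.0467) and miR-152-3p at 1.97 (adjusted p = 0.01). Without that library, the median fold change over all 207 microRNAs was 2.49, above the values of miR-148b-3p and miR-152-3p. No library set then holds both diets, and Dnmt2+/+ ND is left with replicate 1 alone, the library with the highest miR-148a-3p level. Without Dnmt2+/+ ND replicate 1 instead, the fold change of miR-148a-3p was 0.0148.

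The median fold change of all 187 microRNAs was 1.31 on the same log2 scale. The fold change of miR-148a-3p lay 1.91 log2 units below that median, with 7 microRNAs lower. The fold change of miR-148b-3p lay 0.64 below it, and that of miR-152-3p lay 0.02 above it. The call for miR-148a-3p changed with the scaling of the libraries.

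With microRNA reads as the library size, in place of all reads, miR-148a-3p was called lower on HFD, at a log2 fold change of −2.01 ± 0.44 (SE, edgeR adjusted p = 0.00221), 1 of 9 calls among 178 microRNAs (5.06%). DESeq2 with its own size factors gave −2.49 with an adjusted p of 0.00262, and edgeR with TMM factors gave −2.59 with an adjusted p of 0.108. The sign of the miR-148b-3p and miR-152-3p fold changes turned under these scalings, to −0.90 and −0.32 with microRNA reads as the library size, and neither was called. With the library set as a term in the model, the fold change of miR-148a-3p was 1.07 (edgeR adjusted p = 0.317), opposite in sign. In that model the diets are joined only by set C, which has 1 library of each diet. The value also draws on the genotype differences within sets A and B. In set A the only Dnmt2+/+ library is ND replicate 1, which had the highest miR-148a-3p level. Within set C, the HFD library had 1.11 times the miR-148a-3p CPM of the ND library, 0.436 times its miR-148b-3p CPM and 0.366 times its miR-152-3p CPM, with no replicate.

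**Figure D3:**
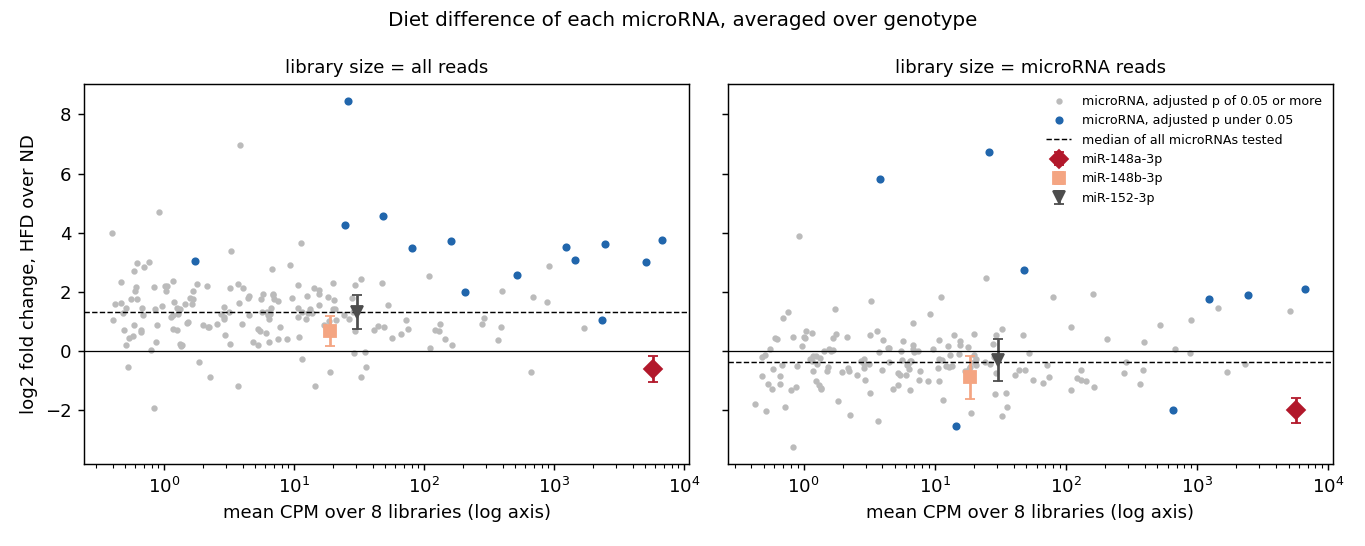
Log2 fold change of each microRNA, HFD over ND averaged over genotype (vertical axis), against its mean CPM over 8 libraries (horizontal log axis), with all reads (left) or microRNA reads (right) as the library size. Family members carry bars of ±1 SE, blue points passed an adjusted p of 0.05, and the dashed line is the median, at 1.31 on the left and −0.37 on the right; miR-148a-3p lies at −0.60 and −2.01.

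Within a genotype, the diet test also called no member. In Dnmt2-/- sperm the lowest adjusted p of a member was 0.172, for miR-152-3p, where 1 of 187 microRNAs (0.535%) was called. In Dnmt2+/+ sperm it was 0.617, for miR-148a-3p, where 1 of 187 (0.535%) was called as well. With microRNA reads as the library size, miR-148a-3p was called lower in Dnmt2+/+ HFD, at −2.35 ± 0.62 (SE, edgeR adjusted p = 0.0308), 1 of 3 calls among 178 microRNAs (1.69%). Leaving out a Dnmt2+/+ ND library also gave calls. Without replicate 2, miR-148a-3p was called in Dnmt2+/+ at −1.72 (edgeR adjusted p = 0.0377), beside 72 of 207 microRNAs in all (34.8%). In Dnmt2-/-, miR-152-3p was called at 1.90 without Dnmt2+/+ ND replicate 1 and without replicate 2 (edgeR adjusted p = 0.0359 and 0.0371), beside 68 of 217 (31.3%) and 68 of 207 (32.9%) microRNAs in all. Neither dropped library is in the Dnmt2-/- comparison, and the fit of all libraries also gave 1.90 for miR-152-3p. Only the spread shared between groups and the microRNAs tested differed. The median over all microRNAs was 2.07 without either library. The interaction of diet and genotype, the difference between the diet effects of the genotypes, was 0.93 ± 0.87 for miR-148a-3p, 1.12 ± 0.995 for miR-148b-3p and 1.15 ± 1.14 for miR-152-3p (log2 units, SE), each with an edgeR adjusted p of 0.789. The interaction was called for 0 of 187 microRNAs (0%) by edgeR and by DESeq2, and 2 of the 187 had an unadjusted edgeR p below 0.05, none of them a member.

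Loss of Dnmt2 gave no call for any member. Averaged over diet, the Dnmt2-/- over Dnmt2+/+ fold change was −0.55 ± 0.44 for miR-148a-3p (log2, SE, 95% interval −1.54 to 0.45, edgeR adjusted p = 0.369). It was −1.09 ± 0.50 for miR-148b-3p (95% interval −2.24 to 0.05, edgeR adjusted p = 0.279). It was −1.37 ± 0.58 for miR-152-3p (95% interval −2.68 to −0.05, edgeR adjusted p = 0.279). No microRNA of 187 was called (0%) by edgeR or DESeq2, and 14 of them, miR-152-3p included, had an unadjusted edgeR p below 0.05. The median over all microRNAs was −1.06, so the fold changes of miR-148b-3p and miR-152-3p lay 0.03 and 0.30 log2 units below it and that of miR-148a-3p lay 0.52 above it.

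The genotype values depend on both Dnmt2+/+ ND libraries. Without replicate 2, the fold change was −0.73 for miR-148b-3p and −0.72 for miR-152-3p (edgeR adjusted p = 0.76 and 0.809), neither called, and the median over all microRNAs was −0.33. Without replicate 1, edgeR called miR-148b-3p at −1.34 ± 0.38 (SE, adjusted p = 0.0353) and miR-152-3p at −1.70 ± 0.42 (SE, adjusted p = 0.0233), among 70 of 217 microRNAs called (32.3%), and miR-148a-3p stood at 0.07 ± 0.36. The median over all 217 microRNAs without replicate 1 was −1.45. In these fits the Dnmt2+/+ ND group has 1 library, assumed to vary like the others. Within set A, the mean CPM in Dnmt2-/- libraries was 0.315 times that of the Dnmt2+/+ library for miR-148a-3p, 0.529 times for miR-148b-3p and 0.636 times for miR-152-3p. As shares of microRNA reads, the same set A ratios were 0.712, 1.22 and 1.48, so the direction turned for miR-148b-3p and miR-152-3p. Within set B the Dnmt2-/- library had 0.9003, 0.813 and 0.811 times the mean of the Dnmt2+/+ libraries for the 3 members in the same order. On HFD alone no member was called, with an adjusted p of 0.971 for each, and on ND alone the lowest was 0.255. For both, 0 of 187 microRNAs were called (0%) by edgeR and by DESeq2. At an unadjusted edgeR p below 0.05 there were 0 on HFD and 26 on ND, of which 2 were members. On ND the fold change was −1.65 for miR-148b-3p and −1.94 for miR-152-3p. The ND median over all microRNAs was −1.65 in that fit and −2.35 without Dnmt2+/+ ND replicate 1. Without Dnmt2+/+ ND replicate 1, the ND comparison called 84 of 217 microRNAs (38.7%), with miR-148b-3p at −2.14 (edgeR adjusted p = 0.0237) and miR-152-3p at −2.61 (edgeR adjusted p = 0.0177).

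Listed markers of other cells are given by diet, and those of epithelium and striated muscle also by set. The 2 listed smooth muscle microRNAs were not in the reference table. The summed level of the 5 listed microRNAs of epithelium, the miR-200 family, of the kind that lines the epididymis, was 608 to 3987 CPM on HFD and 190 to 1914 CPM on ND. By set it was 190 to 412 CPM in A, 3035 to 3987 CPM in B, and in C 608 CPM on HFD and 1914 CPM on ND. The level of miR-152-3p was also lowest in A, while in C it was 18.04 CPM on HFD and 49.3 CPM on ND, the ND value within the range of B. Endothelial miR-126a-3p was at 7.82 to 19.2 CPM on HFD and 1.37 to 14.2 CPM on ND. Blood cell microRNAs (4 of 6 listed were in the reference table) summed to 2.81 to 4.47 CPM on HFD and 0.455 to 4.47 CPM on ND. Of these, miR-144-3p had 0 reads in all 8 libraries. Also erythroid, miR-451a was at 0.874 to 2.07 CPM on HFD and 0.303 to 2.20 CPM on ND. The striated muscle list was represented by miR-206-3p alone, at 0.676 to 75.3 CPM on HFD and 0.0759 to 0.158 CPM on ND. By set miR-206-3p was at 0.0759 to 0.158 CPM in A, 64.7 to 75.3 CPM in B, and in C 0.676 CPM on HFD and 0.147 CPM on ND. Of the liver microRNAs, 2 of 3 summed to 6.40 to 11.8 CPM on HFD and 16.2 to 26.8 CPM on ND. Male germ cell microRNAs, 8 of 9 listed, summed to 400 to 899 CPM on HFD and 371 to 1619 CPM on ND. The part of other cells in the member levels was not tested, and in bulk RNA fewer cells of a type and less RNA per cell cannot be told apart.

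Over the 8 libraries, the microRNAs whose log2(CPM + 1) was most like that of miR-148a-3p among 81 with a mean of at least 10 CPM were miR-881-3p (Pearson r = 0.81), miR-871-3p (r = 0.79) and miR-192-5p (r = 0.63). For miR-148b-3p they were miR-101a-3p (r = 0.98), miR-741-3p (r = 0.95) and its relative miR-152-3p (r = 0.95). For miR-152-3p they were miR-21a-5p, miR-744-5p and miR-340-5p (r = 0.97 each). The r of miR-148a-3p was −0.15 with miR-148b-3p and −0.36 with miR-152-3p. The points share library, set and depth, and these values describe 8 libraries only.

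The opposite arms of the hairpins were rare. The 5p arm of Mir148a had 41 and 30 reads in Dnmt2-/- HFD and 22 and 55 reads in Dnmt2+/+ HFD, against 5 and 11 reads in Dnmt2-/- ND and 10 and 102 reads in Dnmt2+/+ ND. That is 2.14 to 5.41 CPM on HFD and 0.379 to 7.47 CPM on ND, at most 0.187% of the 3p arm in any library. The miR-148b-5p arm had 1 to 3 reads per HFD library and 0 to 3 per ND library, and miR-152-5p had 0 to 2 and 0 to 6. Where a count was 0, a level of up to 0.158 to 0.295 CPM is allowed by 3 counts.

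The lengths of the reads differed between members. The annotated 22 nt made up 95.3% to 98.1% of miR-148a-3p reads on HFD and 95.5% to 99.2% on ND, the highest share of annotated length among 44 microRNAs with at least 100 reads in every library. For miR-148b-3p, 41.9% to 48.2% of reads on HFD and 37.5% to 48.2% on ND had the annotated 22 nt, and 32.6% to 41.5% and 30.9% to 42.7% had 23 nt. For miR-152-3p, 22.1% to 29.4% of reads on HFD and 14.7% to 40.9% on ND had the annotated 21 nt, and 49.4% to 56.8% and 45.2% to 67.6% had 22 nt. The 22-nt class, 1 base longer than the annotated form, was thus the largest of miR-152-3p in all 8 libraries. At the edges of the length window, 397 reads of miR-148a-3p had 20 nt, 100 had 26 nt and 36 had 27 nt, outside it. For miR-148b-3p these were 19, 7 and 0 reads, and for miR-152-3p 55, 12 and 7. Starts shifted by up to 3 bases were rare, at 0.0887% of the reads of miR-148a-3p.

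**Figure D4:**
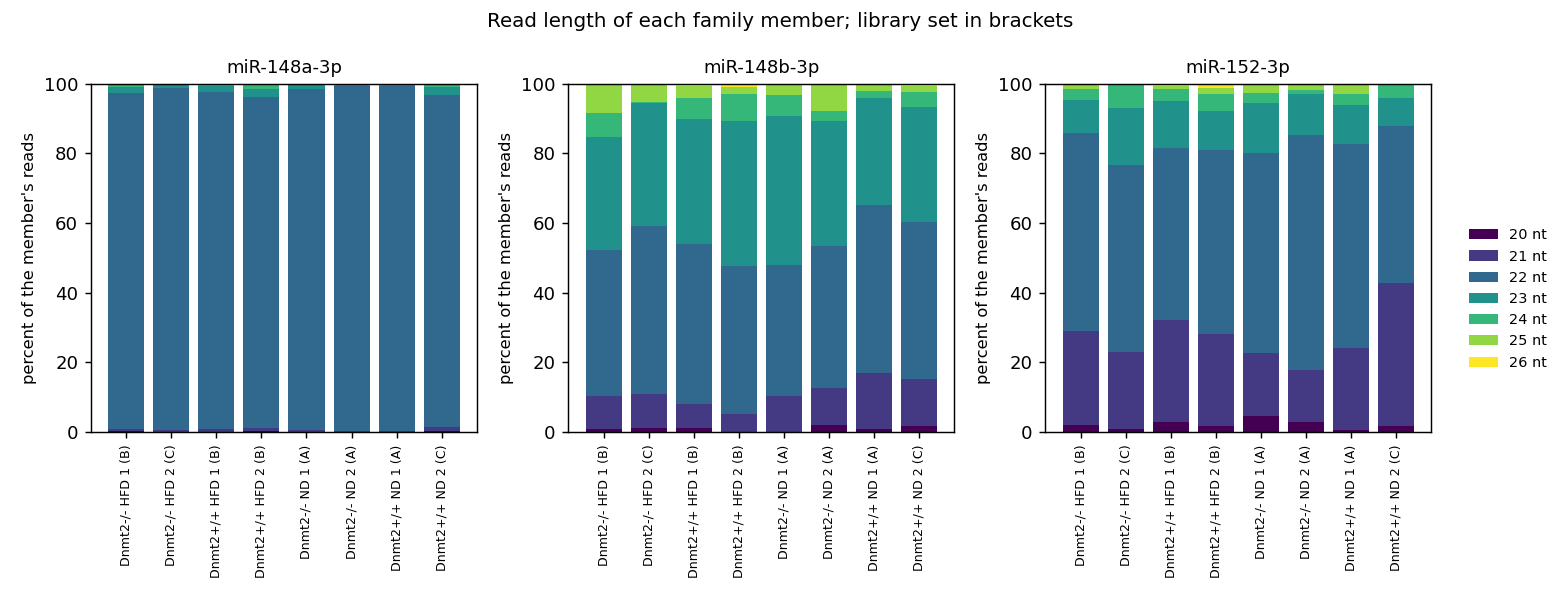
Length of the reads of each member (stacked bars, percent of its reads) in the 8 sperm libraries, with the library set in brackets. The 22-nt class fills at least 95.3% of each miR-148a-3p bar, miR-148b-3p is divided mainly between 22 and 23 nt, and 22 nt leads in each miR-152-3p bar.

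The isoforms that carry these differences are shown as DNA letters, with bases that depart from the hairpin in capitals.
miR-148a-3p annotated: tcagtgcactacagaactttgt
miR-148a-3p ending in C: tcagtgcactacagaactttgC
miR-148b-3p annotated: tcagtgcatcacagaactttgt
miR-148b-3p with U: tcagtgcatcacagaactttgtT
miR-152-3p with U: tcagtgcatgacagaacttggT
miR-152-3p annotated: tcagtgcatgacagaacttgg
miR-152-3p with A: tcagtgcatgacagaacttggA
The annotated form held 77.6% to 91.9% of miR-148a-3p reads on HFD and 84.1% to 95.6% on ND. The form of miR-148b-3p with 1 added U held 27.4% to 30.6% on HFD and 27.6% to 32.3% on ND. The form of miR-152-3p with 1 added U was its most common read over all libraries, at 32.4%, beside 26.1% for the annotated form and 12.5% for the form with 1 added A. In Dnmt2+/+ ND replicate 2 the annotated form led instead, with 252 reads against 182 of the form with 1 added U.

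Any base after the longest match to the hairpin was counted as a 3′ addition. An added base equal to the next encoded base is therefore not counted. A U added to miR-148a-3p or miR-148b-3p shortened by 1 base reads as the annotated form. The bases encoded after miR-152-3p, GCC, hold no U, so the shares of added U are not found equally well in the members. Over all libraries, 8.07% of miR-148a-3p reads, 46.1% of miR-148b-3p reads and 67.5% of miR-152-3p reads carried one. In every library the order was the same, with miR-152-3p above miR-148b-3p and miR-148b-3p above miR-148a-3p. The median over the 44 microRNAs was 18.7% to 30.4% on HFD and 17.1% to 21.8% on ND. By this share miR-152-3p ranked 1 to 3 from the top on HFD and 1 to 4 on ND, and miR-148a-3p ranked 1 to 8 from the bottom on HFD and 1 to 2 on ND.

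Uridine led the additions of the rarer members. Reads with added U only made up 36.8% to 38.1% of miR-148b-3p on HFD and 30.9% to 39.8% on ND. For miR-152-3p they made up 35.4% to 47.9% on HFD and 32.8% to 53.9% on ND, and those with added A only 15.7% to 21.6% on HFD and 15.5% to 20.6% on ND. For miR-148a-3p, added U was found on 0.238% to 0.735% of reads on HFD and 0.100% to 0.501% on ND. With 96 to 673 reads per library, the shares of miR-148b-3p and miR-152-3p carry exact 95% binomial half-widths of up to 10.3 and 10.0 percentage points, against 0.422 for miR-148a-3p.

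**Figure D5:**
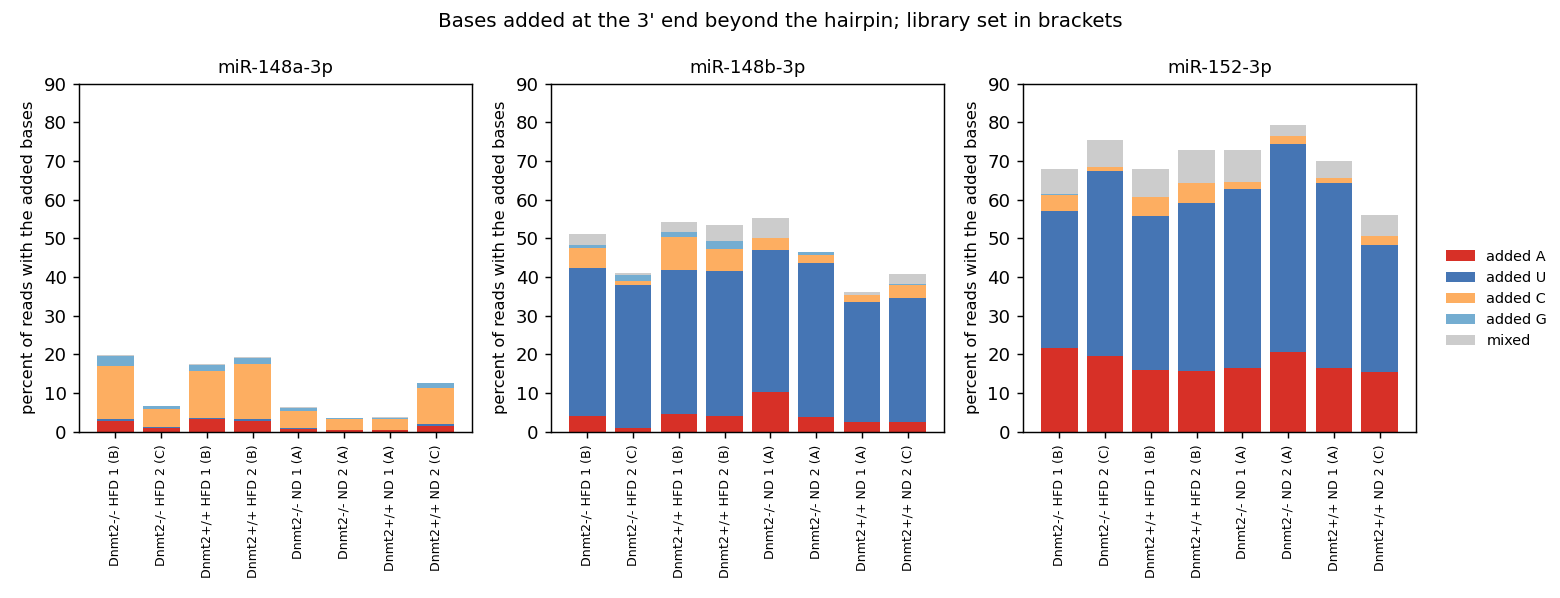
Percent of reads of each member with bases added after the hairpin match (stacked bars by added base; mixed means more than 1 kind of base) in the 8 sperm libraries, with the library set in brackets. Added U leads for miR-148b-3p and miR-152-3p, and added C leads for miR-148a-3p, whose totals run from 6.78% to 19.7% on HFD and from 3.67% to 12.7% on ND.

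The share of miR-148a-3p reads with an addition was 19.7% and 6.78% in Dnmt2-/- HFD and 17.5% and 19.3% in Dnmt2+/+ HFD, against 6.52% and 3.67% in Dnmt2-/- ND and 3.87% and 12.7% in Dnmt2+/+ ND. Most of these reads matched the annotated form except at its last base, so an added base cannot be told apart from a changed one. The mean shares were 15.8% ± 6.1 on HFD and 6.69% ± 4.21 on ND (SD, n = 4 each). The difference of 9.12 percentage points had a two-sided exact permutation p of 0.0571 (0.151 adjusted over 44 microRNAs), and the smallest p this design allows is 0.0286. The groups overlapped, as they did for all but 2 of the 44 microRNAs (4.55% did not overlap). Within set C the difference was opposite in sign, with 6.78% on HFD and 12.7% on ND. These values are from 1 library each, which also differ in genotype. By set the shares were 3.67% to 6.52% in A and 17.5% to 19.7% in B.

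For miR-152-3p the means with an addition were 71.1% ± 3.7 on HFD and 69.6% ± 9.8 on ND (4 libraries each, ± SD, p = 0.8 by exact permutation and when adjusted). By genotype, additions were on 9.18% ± 7.18 of miR-148a-3p reads in Dnmt2-/- and 13.3% ± 6.9 in Dnmt2+/+ (4 libraries each, ± SD, p = 0.457 by exact permutation, 0.811 when adjusted). This difference of −4.15 percentage points turned in sign within the library sets, to 1.22 in set A and 1.38 in set B. They were on 73.9% ± 4.8 of miR-152-3p reads in Dnmt2-/- and 66.7% ± 7.4 in Dnmt2+/+ (4 libraries each, ± SD, p = 0.143 by exact permutation, 0.811 when adjusted). Added A on miR-148a-3p was at 2.41% ± 0.995 on HFD and 0.782% ± 0.525 on ND (4 libraries each, ± SD, p = 0.0571 by exact permutation, 0.236 when adjusted). Added A on miR-152-3p was at 19.5% ± 2.3 in Dnmt2-/- and 15.9% ± 0.5 in Dnmt2+/+ (4 libraries each, ± SD, p = 0.0571 by exact permutation, 0.659 when adjusted). No test of additions or length on these members passed an adjusted p of 0.05, and miR-148b-3p was not tested since 1 library held 96 of its reads. Its share with an addition was 40.9% to 54.2% on HFD and 36.0% to 55.2% on ND.

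Cytosine, which the nucleotidyltransferases above are not known for, led on miR-148a-3p, an observation made after the values were seen. Reads with added C made up 13.8% and 4.78% in Dnmt2-/- HFD and 11.9% and 14.1% in Dnmt2+/+ HFD, against 4.42% and 2.62% in Dnmt2-/- ND and 2.89% and 9.36% in Dnmt2+/+ ND. By set these are 2.62% to 4.42% in A, 11.9% to 14.1% in B and 4.78% to 9.36% in C. Nearly all were the 22-nt form ending in C shown above, with 37314 reads. A read of this form cannot be told apart from the annotated form with its last base changed. Among 22-nt reads with at most 1 change, the last base, at position 22, was C in place of T in 2.66% to 15.2% of reads per library, and the other 6 T positions had C in 0.146% to 0.604%. Added A on miR-148a-3p cannot be told apart from a changed last base either, as 5597 of these reads were the 22-nt form ending in A: the last base was A in place of T in 0.331% to 3.38% of such reads per library, against 0.0141% to 0.169% at the other T positions. The same holds for the 22-nt form ending in G, with 4720 reads. Its last base was G in 0.238% to 3.05% of such reads, against 0% to 0.113% at the other T positions. The forms ending in C, A and G held 5.73%, 0.859% and 0.725% of miR-148a-3p reads, beside 8.07% with any addition. Most of the additions counted on miR-148a-3p thus share this doubt. The median added C over the 44 microRNAs was 3.22% to 10.3% on HFD and 1.71% to 6.44% on ND. By set this median was 1.71% to 2.59% in A, 8.10% to 10.3% in B and 3.22% to 6.44% in C. By added C, miR-148a-3p ranked 3 to 8 from the top of the 44 on HFD and 4 to 12 on ND. The part of the library set in the added C was not tested.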

How the data were processed

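Small RNA of 8 mouse sperm libraries was used (2 per group), and 8 further libraries of the series, of 3T3 cells, were not used here. The deposited values are counts: each file lists the authors' distinct read sequences with their length (18 to 44 nt) and number of reads. The labels' protocols give Trizol extraction and a TruSeq small RNA kit. No trimming step is named in the labels or headers. The reads carry no molecular identifiers and may be copies of 1 molecule, so intervals cover counting error only. Members, marker lists and tests were chosen with earlier results of these data known.

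Reads of 20 to 26 nt were assigned by their first 20 bases to RefSeq mature arms (1738 arms, 52 of them too short). CPM used all reads. Tests were edgeR 4.0.16 quasi-likelihood fits of 4 group means without further scaling, filtered by filterByExpr, with Benjamini-Hochberg adjustment over all microRNAs kept; 95% intervals are log2 fold change ± the t quantile times SE. DESeq2 1.42.0, other scalings, matches and filters, a replicate block, the library set and leaving out each library were alternatives. The fits were tested on simulated data. Shares with 3′ additions were compared by two-sided exact permutation tests of 4 against 4 libraries, adjusted over 44 microRNAs with at least 100 reads in every library. Sets were assigned from the 300 most abundant reads of at least 30 nt (set A had over 100 G-to-T changes per 10000 reads at base 29, set B over 5 C-to-G changes per 10000 at base 26). Set C held the remaining libraries. The named microRNAs were the members, the opposite arms and, for each member, the 3 microRNAs with the most similar levels. Replicates of a group differed beyond sampling noise, with a mean chi-square per microRNA of 94.0 to 1299, and none was counted as a duplicate.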

Additional observations from a re-analysis of the deposited data

Results flagged for a closer look

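In 84 groups of 4 libraries tested for a sample far from the others (levels, shares, additions and lengths of the members, by diet and by genotype), 11 values stood apart by Dixon's criterion, which chance flags in about 1 of 20 groups; several describe the same library.

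The library Dnmt2+/+ ND replicate 2 accounted for 7 of them. Among ND libraries it was high in miR-152-3p at 49.3 CPM, in the miR-148b-3p share of microRNA reads at 0.158% and in the miR-152-3p share at 0.235%. Its family reads were 98.0% miR-148a-3p, the lowest ND value, with 0.816% miR-148b-3p and 1.21% miR-152-3p, the highest. The 0.158% of miR-148b-3p also stood apart among Dnmt2+/+ libraries. The other 3 ND libraries are all of set A, and this library is of set C.

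Among Dnmt2+/+ libraries, ND replicate 1 was low in miR-152-3p at 12.7 CPM. Among HFD libraries, Dnmt2-/- replicate 2 was high in the miR-148a-3p share of microRNA reads at 17.1% and low in added A on miR-148b-3p at 1.04%, and Dnmt2+/+ replicate 2 was high in the miR-152-3p share of microRNA reads at 0.102%. No interaction of diet and genotype passed an adjusted p of 0.05 for any member.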

How the results depend on the processing

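The members and tests above were recomputed under other scalings, filters, matches, models and without each library; the cause of a change was not tested unless the alternative's construction shows it. The diet test averaged over genotype, with 14 calls, gave 6 with TMM factors, 9 with microRNA reads as library size, 28 without the filter on low counts, 26 with DESeq2 and its own size factors, 45 with DESeq2 and library totals and 0 with the library set as a term. In Dnmt2-/- these were 0, 0, 20, 3, 45 and 0 in the same order, and in Dnmt2+/+ 0, 3, 13, 21, 13 and 0, against 1 call in each genotype. Counts without 1 library ran from 1 to 147 averaged over genotype, 0 to 68 in Dnmt2-/- and 0 to 72 in Dnmt2+/+. For Dnmt2-/- against Dnmt2+/+ they ran from 0 to 70 averaged over diet and 0 to 84 on ND. The replicate numbers did not pair the libraries, with correlations of same-numbered deviations from −0.56 to 0.58, and the replicate block gave 10 calls in the diet test averaged over genotype and 1 in each genotype, with no member called. The diet fold change of miR-148a-3p was called at −2.01 and −2.49 with microRNA reads and DESeq2 size factors, and turned to 1.07 with the set term. That of miR-148b-3p turned to −0.94 with TMM factors, −0.90 with microRNA reads, −0.84 with DESeq2 size factors and −0.59 with the set term, and that of miR-152-3p to −0.21, −0.32, −0.11 and −0.97. The genotype fold change of miR-148a-3p turned to 0.21 with TMM factors, 0.41 with microRNA reads and 0.0687 with DESeq2 size factors, and that of miR-148b-3p to 0.0021 with TMM factors. The miR-152-3p interaction turned to −0.012 with TMM factors. Without 1 library, the diet fold change of miR-148a-3p ran from −0.93 to 0.0148 and its genotype fold change from −0.87 to 0.0723, and the interactions of miR-148a-3p and miR-152-3p from −0.30 to 1.59 and −0.14 to 1.82. In percentage points, HFD minus ND within set C was −5.92 for additions on miR-148a-3p, −0.563 for added A, −0.263 for added U and 2.62 for the annotated length, and on miR-152-3p 19.4, 4.13, 15.1 and −18.8, each of opposite sign or moved against all libraries. That pair is 1 library of each diet, and the libraries also differ in genotype. Dnmt2-/- minus Dnmt2+/+ within set A was 1.22 for additions, 0.154 for added A, 0.119 for added U and −0.636 for the annotated length of miR-148a-3p and 1.88 for added A on miR-152-3p. Within set B it was 1.38 for additions on miR-148a-3p, −2.34 for additions on miR-152-3p, 5.82 for added A, −6.35 for added U and −0.666 for its annotated length. Counting every base beyond the annotated end gave −1.23 for miR-152-3p additions, HFD minus ND. Without 1 library, HFD minus ND for miR-152-3p ran from −3.03 to 4.77 for additions, −0.194 to 2.06 for added A and −1.37 to 7.35 for the annotated length. DESeq2 with its own size factors also called miR-148a-3p lower on HFD in Dnmt2+/+, at −3.05. With 96 to 673 reads of each rarer member per library, shifts of a few percentage points in their 3′ ends were not detectable at this depth.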
